A study of Mus musculus with 24 samples.

Results

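The response described here is that of the hippocampus of Tob-KO mice 15 min after fear conditioning. It was read from 6 of the 24 RNA sequencing libraries of the study, namely the 3 libraries labelled Tob-KO that were collected 15 min after conditioning and the 3 labelled Tob-KO from naive mice. The comparison was made over all genes that could be tested, 18352 of the 47593 in the table. The whole study had 8 groups of 3 libraries, from Tob-KO and wild-type (WT) mice that were naive or were killed at 1 of 3 times after conditioning (15 min, 1 h or 3 h), and the design text of the series calls the 3 of a group biological replicates. All mice were C57BL/6J males aged 8 to 12 weeks. Conditioning paired a tone with a foot shock that the mouse could not escape, after which the mouse went back to its home cage, and the naive mice had none of this. Whether naive mice were handled or saw the chamber, and at what time of day tissue was taken, was not given in the sources used here, so that shock, tone, chamber and handling cannot be told apart in this contrast. The Tob-KO line was made in earlier work and is not the line with a floxed second exon that the study also describes. Which stretch of the gene it lacks was not given in the sources used here.

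When a neuron fires strongly, calcium and ERK signalling switch on a set of genes within minutes without need of new protein. These immediate early genes encode transcription factors such as Fos, Egr1 and Npas4 and effectors such as Arc, and their mRNAs are short-lived. Shock also releases corticosterone, whose receptors Nr3c1 and Nr3c2 are abundant in the hippocampus and switch genes such as Fkbp5, Sgk1 and Tsc22d3. TOB and the related BTG proteins bind the CCR4-NOT complex, which removes the poly(A) tails of mRNAs.

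The libraries held 29953358 to 41595972 counts at 15 min and 30384485 to 33704345 counts in naive Tob-KO mice. Levels below are in CPM, that is, relative to the total of each library after TMM over the 24 libraries, and not corrected for gene length, and a change is the log2 fold change of 15 min over naive with its standard error. A gene is said to have risen or fallen if its Benjamini-Hochberg adjusted p in edgeR's quasi-likelihood test, fitted on all 24 libraries, was at most 0.05. Genes that mark hippocampal neurons were present throughout, with a sum over 9 genes of 887 to 1007 CPM in naive and 817 to 972 CPM in 15 min libraries. Genes of the choroid plexus, a tissue beside the hippocampus, set replicate 1 of both groups apart from the others. Their sum over 17 genes was 291, 7527 and 3860 CPM in naive replicates 1 to 3 and 289, 5460 and 2226 CPM at 15 min, and none of them passed the test. In bulk tissue fewer cells of a type and less RNA per cell cannot be told apart.

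Tob1, the gene that the labels name as knocked out, was not low in the libraries labelled Tob-KO. Its level was 52.0, 55.4 and 52.8 CPM in naive replicates 1 to 3, which rested on 1592 to 1790 reads, and 66.5, 68.6 and 65.4 CPM at 15 min, with 2006 to 2730 reads. WT mice had 43.1, 37.5 and 33.7 CPM when naive and 44.4, 44.1 and 42.8 CPM at 15 min, so every Tob-KO library lay above every WT library of these groups. Tob1 rose by 15 min in the libraries labelled Tob-KO, by 0.33 (SE 0.07, n = 3 per group, edgeR adjusted p = 0.0202). The call was kept in 2 of 6 fits that each left out 1 library and was lost without replicates 1 or 3 of either group (edgeR adjusted p of 0.0546 to 0.0817). The level was 59.3 to 67.6 CPM at 1 h and 52.8 to 55.9 CPM at 3 h. In WT, Tob1 changed by 0.19 from naive to 15 min (SE 0.07, edgeR adjusted p = 0.492) and did not pass. The change in Tob-KO differed from that in WT by 0.13 (SE 0.10, edgeR adjusted p = 0.982). The counts run over the whole gene, so reads from a shortened transcript and from an intact one cannot be told apart, and the libraries are called by their label below.

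At 15 min 466 genes had changed in the libraries labelled Tob-KO, 165 of them higher and 301 lower, which is 2.54% of the genes tested (0.899% higher and 1.64% lower). These shares are the background for the counts of calls in the gene lists below. The lists were chosen with earlier results of these data known. Most changes were small. The median change was 0.35 among the genes that rose and -0.40 among those that fell, and 132 and 205 of them, respectively, lay under 1.5-fold. A change of at least 2-fold was found for 39 genes (0.213%), 15 higher and 24 lower. Some of the 39 reached the filter of 0.2 CPM in 2 libraries only through the group in which they were high. One such gene was 1700011I03Rik, at 0 CPM in every naive and 0.133 to 0.288 CPM in 15 min libraries. Lao1 was another, at 0.425 to 0.754 CPM in naive and 0.0282 to 0.133 CPM in 15 min libraries. For such genes a large fold change is no sign of a strong response. Of the genes that rose, 164 of 165 had all 15 min libraries above all naive ones, and of those that fell, 298 of 301 had all below, while 20% of all genes tested were apart in this way in either direction, 9.53% higher and 10.5% lower. The number of calls depended on single libraries. It was 248, 876 and 44 without replicates 1, 2 and 3 of the 15 min group and 261, 163 and 172 without replicates 1, 2 and 3 of the naive group, and 5 when the fit held only these 6 libraries and thus 4 in place of 16 residual degrees of freedom. The count of changes of at least 2-fold was 11 without replicate 3 and 105 without replicate 2 of the 15 min group and 4 with these 6 libraries alone. A set of 36 genes, 18 higher and 18 lower, passed in all 6 fits that left out 1 library (all 6 fits, below).

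Immediate early genes of neuronal activity had most of the large rises. Of the 10 largest among genes apart with a mean of at least 1 CPM, 7 were genes of the activity, ERK feedback or Tob and Btg lists. These lists held 62, 13 and 5 of the 18352 genes tested. They were chosen with earlier results of these data known, so the count is a description and no test. Fos, whose protein is part of the AP-1 transcription factor, stood at 6.6, 4.08 and 8.89 CPM in naive replicates 1 to 3 and at 51.7, 23.8 and 42.1 CPM at 15 min. Each 15 min library lay above each naive one, and the change was 2.58 (SE 0.30, edgeR adjusted p = 0.000249). Npas4, a factor that neurons induce through calcium, went from 6.27, 4.90 and 7.08 CPM to 22.6, 17.3 and 30.7 CPM, a change of 1.95 (SE 0.22, edgeR adjusted p = 0.000249). Egr2, a zinc finger factor of the Egr family, was near silent in naive mice. It was measured at 0.588, 0.628 and 1.15 CPM and rose to 8.95, 4.68 and 6.21 CPM, by 3.05 (SE 0.42, edgeR adjusted p = 0.00102). Egr2 reached the mean of 1 CPM only through the 15 min libraries. Junb, an AP-1 partner of Fos, rose from 41.6, 38.3 and 38.2 CPM to 102, 63.3 and 73.8 CPM, by 1.02 (SE 0.17, edgeR adjusted p = 0.00491). Fos, Npas4, Egr2 and Junb passed in all 6 fits. Their adjusted p was 0.0601 to 0.122 when only the 6 libraries entered the fit.

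Of the 38 early nuclear proteins tested (AP-1 and small Maf proteins, Egr and Nab, Nr4a and others), 8 rose, none fell and 30 had a positive change, with a median of 0.20, beside 9443 positive of 18352 genes tested and a median of 0.01. The median change of this list in WT was 0.24. In addition to Fos, Npas4, Egr2 and Junb the risen genes were Egr1, Egr4, Ier2 and Gadd45b. Egr1 went from 94.1, 80.0 and 110 CPM to 225, 135 and 176 CPM, a change of 0.91 (SE 0.24, edgeR adjusted p = 0.0475). Egr4 rose by 0.72 (SE 0.15), Ier2 by 0.98 (SE 0.21) and Gadd45b, which acts in DNA demethylation, by 0.52 (SE 0.14). Their groups were apart, but the calls rested on single libraries. Egr1 and Gadd45b kept their call only without replicate 2 of the 15 min group, the lowest one, and had edgeR adjusted p of 0.0713 to 0.180 and 0.0701 to 0.197 without any other library. Egr4 was lost without replicates 1 or 3 of either group (0.0509 to 0.108 with edgeR), and Ier2 without replicates 1 or 3 of the 15 min group or replicate 2 of the naive group (0.0683 to 0.133 with edgeR).

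Other members of the same families did not pass. Egr3 had 48.9 to 52.7 CPM in naive and 47.0 to 60.5 CPM in 15 min libraries, a change of 0.05 (SE 0.12). Nr4a1, an orphan nuclear receptor, had 47.1 to 49.6 CPM in naive mice and 122, 61.6 and 59.3 CPM at 15 min. The groups were apart, but most of the rise lay in replicate 1, and the change of 0.74 (SE 0.25) had an edgeR adjusted p of 0.107 (0.0480 without replicate 2 of the 15 min group). Fosb changed by 0.67 (SE 0.22, edgeR adjusted p = 0.0996; 0.0215 without the same replicate) with overlapping groups. Jun, Nr4a2 and Nr4a3 did not pass.

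Of 24 activity-regulated effectors tested, Arc and Cyr61 rose and none fell (0.899% and 1.64% of all genes tested), and 11 had a positive change. Arc, which acts on AMPA receptors at synapses, stood at 91.3, 80.3 and 82.0 CPM in naive mice and at 301, 151 and 176 CPM at 15 min, with replicate 1 far above the other 15 min libraries. Its change was 1.31 (SE 0.27, edgeR adjusted p = 0.0169), and without that replicate it was 0.94 (edgeR adjusted p = 0.0683). Arc was also lost without naive replicates 2 or 3 (0.0566 and 0.0527). Cyr61, a secreted matricellular protein, rose from 2.88, 3.52 and 3.07 CPM to 11.7, 5.75 and 9.95 CPM, by 1.53 (SE 0.30, edgeR adjusted p = 0.0146; 0.0716 without replicate 3 of the 15 min group). The changes of Bdnf, Homer1 and Nptx2, which are known to be slower or to depend on the type of activity, were -0.14, -0.11 and -0.26, and none passed. Over all 15 genes that were at least 2-fold higher, replicate 2 was the lowest of the 15 min libraries for 10, and replicate 1 or replicate 3 was the highest for 8 and 7. Some of these 15 could be tested only through their 15 min libraries.

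**Figure D1:**
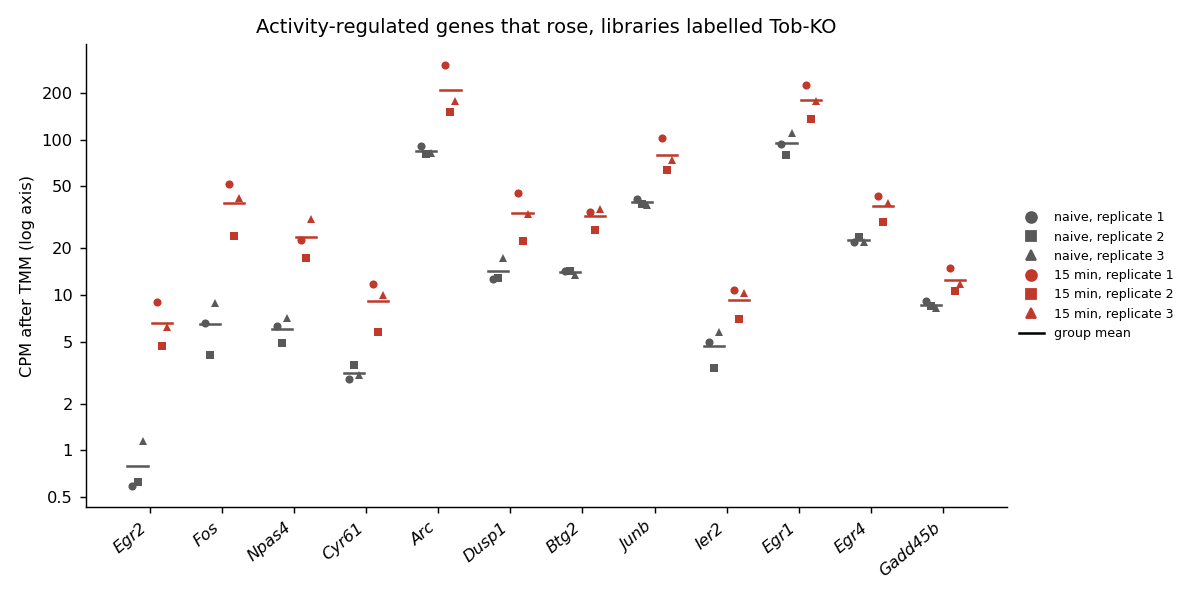
Level in CPM after TMM (log axis) of the 12 activity-regulated genes named above and below that rose, in each of the 3 naive (grey) and 3 15 min (red) libraries labelled Tob-KO, with lines for group means and a marker shape for each replicate number. All 15 min points lie above all naive points of the same gene, from Egr2 at 0.588 to 1.15 CPM against 4.68 to 8.95 CPM up to Arc at 80.3 to 91.3 CPM against 151 to 301 CPM.

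Dusp1, a nuclear phosphatase that switches off MAP kinases (the protein MKP-1), had 12.6, 12.9 and 17.3 CPM in naive mice and 45.3, 22.4 and 33.1 CPM at 15 min, a rise of 1.23 (SE 0.23, edgeR adjusted p = 0.0108) that passed in all 6 fits. Of 13 feedback inhibitors of ERK tested, Dusp1 rose and Spred3, an inhibitor of Ras signalling, fell by 0.25 (SE 0.06, edgeR adjusted p = 0.0250). Spred3 was lost in 4 of the 6 fits, without replicates 2 or 3 of the 15 min group or 1 or 3 of the naive group (0.0541 to 0.178 with edgeR). Dusp6 and Spry4 were apart and higher without passing, with changes of 0.42 (SE 0.13) and 0.24 (SE 0.08).

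Of 28 mRNA decay genes tested, 4 rose and 2 fell (0.899% and 1.64% of all genes tested), and the largest rise was that of Btg2, a relative of Tob1. Btg2 (chr1:134075170-134079120, reverse strand, GRCm38) stood at 14.3, 14.3 and 13.5 CPM in naive mice and at 34.2, 26.3 and 35.6 CPM at 15 min. The change was 1.2 (SE 0.14, edgeR adjusted p = 0.000249), and it passed under all 15 alternatives. Of 5 Tob and Btg genes tested, Btg2 and Tob1 rose, Btg1 was apart and higher at 0.27 (edgeR adjusted p = 0.0530), and Tob2 and Btg3 changed by -0.03 each without passing. Zfp36l1 and Zfp36l2, which bind AU-rich elements of mRNAs and speed their decay, rose by 0.54 (SE 0.14, edgeR adjusted p = 0.0409) and 0.58 (SE 0.14, edgeR adjusted p = 0.0287). Zfp36l1 had 22.7 to 29.7 CPM in naive and 38.5 to 39.0 CPM in 15 min libraries, but lost its call in every fit that left out 1 library (adjusted p of 0.0502 to 0.171 with edgeR), and Zfp36l2 was lost without replicate 3 of the 15 min group or any naive library (0.0517 to 0.218). Of 16 genes of the deadenylation machinery, Cnot3, a subunit of CCR4-NOT, fell by 0.26 (SE 0.06, edgeR adjusted p = 0.0302) and Pan2, a poly(A) nuclease, by 0.45 (SE 0.12, edgeR adjusted p = 0.0466), and none rose. Cnot3 was lost without replicate 3 of the 15 min group or any naive library (edgeR adjusted p of 0.0509 to 0.217), and Pan2 kept its call only without replicate 2 of the 15 min group (0.0546 to 0.270 in the other fits).

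RefSeq's promoters of GRCm38.p6, from 250 bases before to 50 after the start of a gene, were searched for motifs that activity-dependent factors bind. The cAMP response element, TGACGTCA, was found in 2.03% of 27025 promoters and in 3.36% of those of the genes tested, beside 4.17% of the 120 promoters of genes that rose and 3.07% of the 228 of genes that fell. Among the genes at least 2-fold higher, 10 of 15 had a promoter entry, and this element was in 2, Btg2 and Dusp1. The CArG box of serum response factor was in 1.81% of all promoters, in 2 of these 10 and in 5.83% of those of genes that rose, 2.19% of those of genes that fell and 1.65% of those tested. The shorter run TGACG (or CGTCA on the other strand), which overlaps the full element, was in 32.9% of tested promoters, with 31.7% among genes that rose and 34.6% among those that fell, near that background. It was in 8 of the 10 entries of genes of the activity, ERK feedback, mRNA decay factor and Tob and Btg lists that rose, a set chosen after the calls were known. Motifs that do not read the same on both strands were searched on each, and a match is a description of the letters only. The sites of the genes that the rise turned on are shown 5′ to 3′ on the strand of the gene, with the motif in capitals, to let their flanks be compared.
Btg2, chr1:134079303-134079332, reverse strand, full element 166 bases before the start: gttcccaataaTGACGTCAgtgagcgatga
Dusp1, chr17:26508597-26508626, reverse strand, full element 143 bases before the start: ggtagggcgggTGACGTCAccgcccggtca
Fos, chr12:85473812-85473841, forward strand, shorter run nearest to the start, 66 bases before it: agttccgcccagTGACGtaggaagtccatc
Egr2, chr10:67537787-67537816, forward strand, CArG box 72 bases before the start: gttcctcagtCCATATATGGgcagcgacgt

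Of 20 genes tested that respond to glucocorticoids, mostly by a rise, 6 fell and none rose (1.64% and 0.899% of all genes tested). A negative change was found for 17, and 10 were apart and lower (10.5% of all genes tested were apart and lower). The list was chosen with earlier results of these data known, so its counts and median are no test of the group. The median change was -0.50 in the libraries labelled Tob-KO and -0.14 in WT, beside 0.01 over all genes tested in Tob-KO. Hif3a, a hypoxia-inducible factor subunit that hormone treatment raises in many tissues, had 13.5, 14.4 and 16.9 CPM in naive mice and 3.84, 2.34 and 3.88 CPM at 15 min. The change was -2.15 (SE 0.29, edgeR adjusted p = 0.000884). Plin4, a lipid droplet coat protein, went from 14.7, 34.3 and 29.3 CPM to 2.92, 1.89 and 2.40 CPM, a change of -3.45 (SE 0.55, edgeR adjusted p = 0.00425). The naive libraries spread widely, but the lowest of them was far above the highest 15 min library. Fkbp5, a co-chaperone of the glucocorticoid receptor and a standard readout of it, fell from 83.1, 92.2 and 89.0 CPM to 57.6, 57.1 and 61.1 CPM, by 0.59 on the log2 scale (SE 0.07, edgeR adjusted p = 0.000329). Hif3a, Plin4 and Fkbp5 passed under all 15 alternatives, the fit on only these 6 libraries included.

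Zbtb16, a zinc finger repressor, fell by 0.57 (SE 0.10, edgeR adjusted p = 0.00632; 0.0563 without replicate 3 of the 15 min group) and Sult1a1, a sulfotransferase, by 1.14 (SE 0.22, edgeR adjusted p = 0.0146; 0.0603 without the same library and 0.0533 without naive replicate 3). Tsc22d3, the gene of GILZ, was called lower with overlapping groups. It had 72.4, 91.8 and 86.9 CPM in naive mice and 74.8, 47.3 and 50.2 CPM at 15 min, so that 1 of the 15 min libraries lay within the naive range, and the call (-0.55, SE 0.14, edgeR adjusted p = 0.0472) was kept only without replicate 1 of either group (edgeR adjusted p of 0.0972 to 0.288 in the other fits). Mt2, Arrdc2 and Map3k6 were apart and lower with edgeR adjusted p of 0.0525, 0.0528 and 0.0544. Sgk1, a kinase that both glucocorticoids and activity induce, overlapped, with 85.6, 165 and 128 CPM in naive mice and 99.0, 60.3 and 44.0 CPM at 15 min (-0.90, SE 0.33, edgeR adjusted p = 0.151). Per1 changed by -0.19 (SE 0.20) and did not pass either. The palindromic glucocorticoid response element, AGAACA and TGTTCT with any 3 bases between them, was in 3 of the 27025 promoters searched, and Sgk1 was the only gene of the list with it, shown here because the window holds the whole palindrome.
Sgk1, chr10:21993694-21993723, forward strand, element 189 bases before the start: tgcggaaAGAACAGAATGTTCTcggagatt

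**Figure D2:**
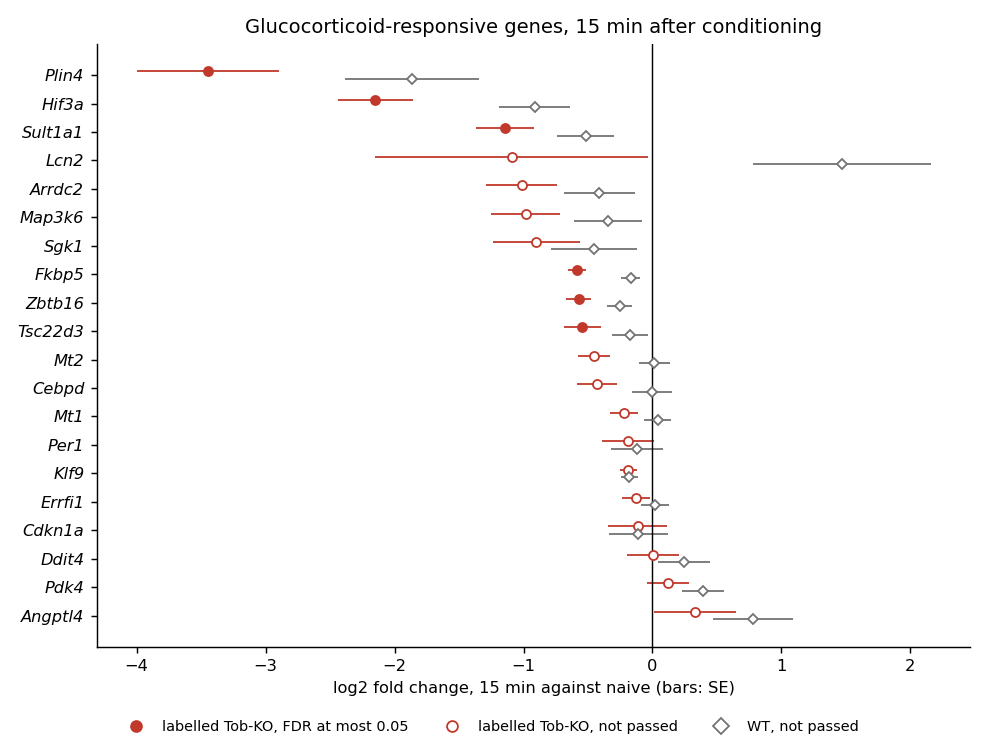
Log2 fold change of 15 min over naive (x axis, bars are standard errors) of the 20 glucocorticoid-responsive genes tested, in libraries labelled Tob-KO (red circles, filled where the gene passed) and in WT (grey diamonds), ordered by the Tob-KO value. The Tob-KO values run from -3.45 for Plin4 to 0.33 for Angptl4, and 17 of 20 lie below 0.

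Of 9 stress hormone receptors tested, 1 rose and none fell (0.899% and 1.64% of all genes tested). Nr3c1, the glucocorticoid receptor, had 114, 104 and 113 CPM in naive and 135, 130 and 133 CPM in 15 min libraries, a rise of 0.27 (SE 0.05, edgeR adjusted p = 0.0146; 0.0716 without replicate 3 of the 15 min group and 0.0609 without naive replicate 2). Nr3c2, the mineralocorticoid receptor, changed by 0.07 (SE 0.13) and did not pass. Crhr2 had 3.30 to 6.44 CPM in naive and 2.82 to 5.16 CPM in 15 min libraries. Avpr1a had 0.177 to 1.05 CPM against 0.795 to 1.89 CPM and Mc3r 0.738 to 1.54 CPM against 0.530 to 1.68 CPM, all with overlapping groups. Ttr, a choroid plexus transcript, is itself 1 of the 17 genes in the choroid plexus sum given above and makes up much of it. It had 35.7, 4211 and 1971 CPM in naive replicates 1 to 3 and 29.03, 2895 and 1099 CPM at 15 min (-0.63, SE 1.73). Lcn2, the iron-binding protein lipocalin-2, was read by only 2, 9 and 15 reads in the naive and 9, 1 and 3 reads in the 15 min libraries, and a difference was not detectable at this depth (-1.09, SE 1.06, edgeR adjusted p = 0.634).

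Lists of other stress responses gave no calls. None of 12 cytosolic heat shock genes, 14 endoplasmic reticulum chaperones and 8 inflammatory genes tested passed, with median changes of -0.12, -0.22 and -0.14. The WT medians of these lists were 0.08, 0.12 and 0.14, and the difference of the medians was not tested. The other 7 inflammatory genes, among them Il1b, Tnf and Il6, were too low to be tested. Of 17 clock genes Per3 fell, by 0.56 (SE 0.13, edgeR adjusted p = 0.0309), from 53.2, 57.3 and 60.5 CPM to 44.3, 43.1 and 28.7 CPM, and it was lost without replicate 3 of the 15 min group, the lowest one (edgeR adjusted p = 0.216), and without naive replicates 2 or 3 (0.0683 and 0.0825). Of 21 glutamate receptor genes Grm3, a metabotropic receptor, rose by 0.29 (SE 0.07, edgeR adjusted p = 0.0412), and it was kept only without replicate 2 of the 15 min group or naive replicate 3 (edgeR adjusted p of 0.0895 to 0.280 in the other fits). None of 17 genes of the GABA synapse passed.

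Of 8 astrocyte markers 2 rose and 1 fell, and of 8 endothelial markers 1 rose, while 0.899% of all genes tested rose and 1.64% fell. Aqp4, the water channel of astrocyte endfeet, rose from 138, 144 and 129 CPM to 174, 185 and 195 CPM, by 0.43 (SE 0.07, edgeR adjusted p = 0.00235), in all 6 fits. Gja1 (connexin 43) also rose, by 0.22 (SE 0.05, edgeR adjusted p = 0.0309), while Gjb6 (connexin 30) fell by 0.43 (SE 0.10, edgeR adjusted p = 0.0284). Gja1 kept its call only without replicate 2 of the 15 min group and Gjb6 only without replicate 1 of either group (edgeR adjusted p of 0.0581 to 0.222 and 0.0695 to 0.107 in the other fits). Slc1a2, Slc1a3, Aldh1l1, Gfap and Aldoc did not pass, and the sum over the 8 markers was 5108 to 5165 CPM in naive and 4932 to 5390 CPM in 15 min libraries. Cldn5, the tight junction claudin of brain endothelium, had 17.6, 17.2 and 17.9 CPM in naive mice and 27.1, 31.7 and 35.3 CPM at 15 min, a rise of 0.84 (SE 0.21, edgeR adjusted p = 0.0344). Cldn5 was lost without replicate 3 of the 15 min group (0.216) and without any naive library (0.0762 to 0.0973 with edgeR). The sum over the 8 endothelial markers, Cldn5 included, was 182 to 206 CPM in naive and 222 to 243 CPM in 15 min libraries. The part of cell makeup in the rise of Cldn5 was not tested.

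A further 8 genes, most of them of membrane proteins, stood among the 36 that passed in all 6 fits, and are named here after their values were seen. Ednrb, the endothelin B receptor, rose from 51.7, 49.9 and 46.9 CPM to 67.6, 74.6 and 80.2 CPM (0.58, SE 0.09, edgeR adjusted p = 0.00235). S1pr1, a receptor of sphingosine-1-phosphate, rose from 114, 106 and 98.3 CPM to 139, 143 and 161 CPM (0.48, SE 0.06, edgeR adjusted p = 0.000884), and the monocarboxylate transporter Slc16a1 and the Toll-like receptor partner Tril rose by 0.54 (SE 0.09) and 0.58 (SE 0.09). On the falling side were Mertk, a receptor kinase of phagocytosis, from 56.8, 62.0 and 62.9 CPM to 40.1, 37.0 and 42.4 CPM (-0.60, SE 0.09, edgeR adjusted p = 0.00122), the lipid transporter Mfsd2a at -0.82 (SE 0.14), the heparan sulfate proteoglycan Sdc4 at -0.49 (SE 0.09) and the secreted protease Htra1 at -0.53 (SE 0.09). Naive and 15 min libraries did not overlap for any of these 8 genes. The same held for 164 of the 165 genes that rose and 298 of the 301 that fell, so it adds nothing to their calls.

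**Figure D3:**
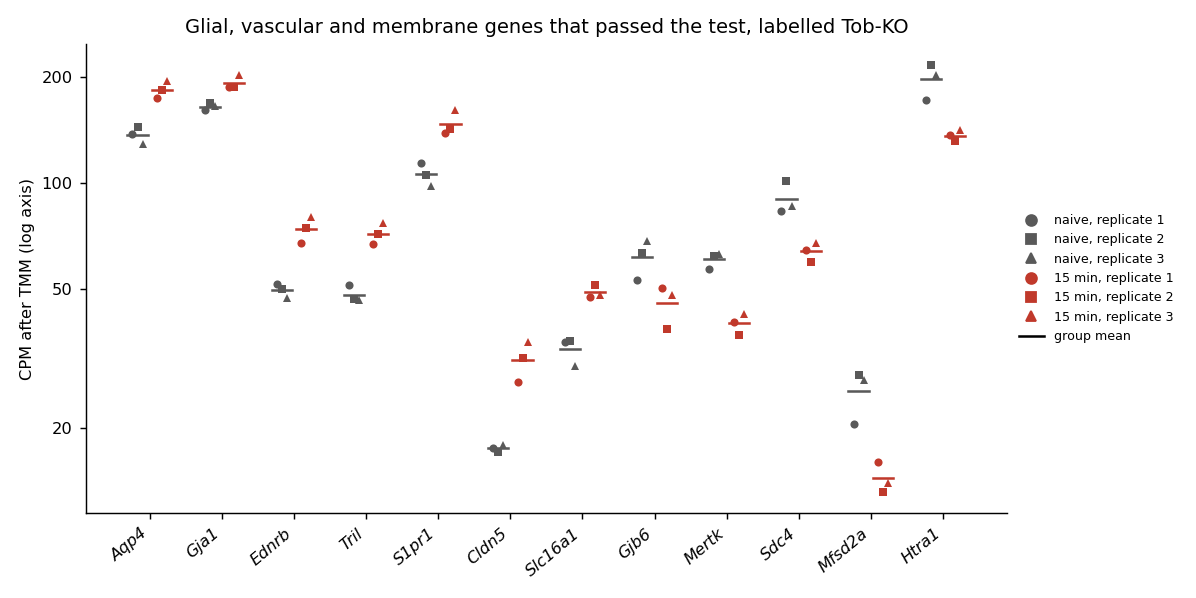
Level in CPM after TMM (log axis) of 12 glial, vascular and membrane genes in the 3 naive (grey) and 3 15 min (red) libraries labelled Tob-KO, with lines for group means. Genes to the left (Aqp4 to Slc16a1) were higher at 15 min and those to the right (Gjb6 to Htra1) lower, for example Cldn5 with 17.2 to 17.9 against 27.1 to 35.3 CPM and Mertk with 56.8 to 62.9 against 37.0 to 42.4 CPM.

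The gene with the largest rise among those with a mean of at least 1 CPM was A830036E02Rik, an antisense transcript (chr11:99416956-99425497, forward strand, GRCm38) on the chromosome of Tob1, 5.21 Mb from it. It was nearly absent from naive Tob-KO libraries, at 0.131, 0.157 and 0.295 CPM (4, 5 and 10 reads), and stood at 7.89, 7.80 and 5.73 CPM (238, 277 and 239 reads) at 15 min, a change of 5.15 (SE 0.85, edgeR adjusted p = 0.00462) that passed under all 15 alternatives. It reached the mean of 1 CPM only through the 15 min libraries. WT mice had 16.7 to 26.9 CPM when naive and 14.8 to 29.4 CPM at 15 min, and the Tob-KO libraries of 1 h had 5.43, 0.208 and 0.267 CPM and those of 3 h 0.144 to 1.16 CPM. Since the level also differed between Tob-KO and WT and among Tob-KO mice of 1 h, a response to conditioning and a difference at this locus between the mice of the naive and 15 min groups cannot be told apart. The transcript overlaps Krt12, a keratin gene on the opposite strand, which was also higher at 15 min (0.098 to 0.384 against 0.663 to 1.85 CPM, a change of 2.38, SE 0.61, edgeR adjusted p = 0.0412, kept in 2 of the 6 fits), and since the strand setting of the counting was not given, their reads cannot be told apart. Krt12 is named after its values were seen.

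Among the 10 genes with the largest rises were also Casq2, a calcium-binding protein of the endoplasmic reticulum, at 1.19 (SE 0.30) and Sox3, a progenitor factor, at 1.16 (SE 0.23), both with means of 1.02 to 2.42 CPM in the groups. The 10 with the largest falls held, in addition to Plin4, Hif3a and Sult1a1, the metalloproteases Adamts14 (-1.42, SE 0.32) and Adam8 (-1.23, SE 0.25), the spindle protein gene Fam83d (-1.20, SE 0.25) and the unnamed genes Gm42644, E530001F21Rik, Gm37069 and RP23-16L19.4 (-1.37 to -1.21). Of these last 9 genes, Casq2 to RP23-16L19.4, each was lost in at least 1 fit that left out 1 library, for each of them in the fit without replicate 3 of the 15 min group (edgeR adjusted p of 0.0932 to 0.230).

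Levels at 1 h and 3 h were compared with those at 15 min in the libraries labelled Tob-KO. None of 18220 genes tested (0%) differed between 1 h and 15 min at an adjusted p of at most 0.05 by edgeR's quasi-likelihood test, while 1622 did at an unadjusted p under 0.05 and DESeq2 called 50. Npas4 and Btg2 came nearest among the genes named here. Npas4 stood at 11.7, 8.05 and 9.998 CPM at 1 h (-1.25 from 15 min, SE 0.21, edgeR adjusted p = 0.0573) and Btg2 at 19.9, 18.1 and 17.1 CPM (-0.81, SE 0.14, edgeR adjusted p = 0.0573), all below every 15 min library. Arc, at 192 to 243 CPM, Junb, at 66.3 to 93.0 CPM, and Egr1, at 188 to 208 CPM, overlapped with their 15 min values at 1 h. By 3 h Fos was at 5.96 to 8.45 CPM, within its naive range, Npas4 at 5.90 to 7.33 CPM, overlapping it, and Arc at 54.5 to 70.5 CPM, below it.

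The group means of Plin4, Hif3a and Fkbp5 lay between their 15 min and naive means at 1 h, and none of the 3 passed the test against 15 min (edgeR adjusted p of 0.277, 0.14 and 0.124). Hif3a had 6.83 to 10.9 CPM at 1 h and 10.4 to 19.0 CPM at 3 h, Plin4 had 3.30 to 15.0 CPM and 14.0 to 30.4 CPM, and Fkbp5 had 70.2 to 80.1 CPM and 82.8 to 91.7 CPM. Cldn5 was at 12.9 to 17.9 CPM at 1 h, below every 15 min library (-1.04, SE 0.21, edgeR adjusted p = 0.127). Aqp4 was at 155 to 166 CPM at 1 h, also below every 15 min library (-0.21, SE 0.07, edgeR adjusted p = 0.314).

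**Figure D4:**
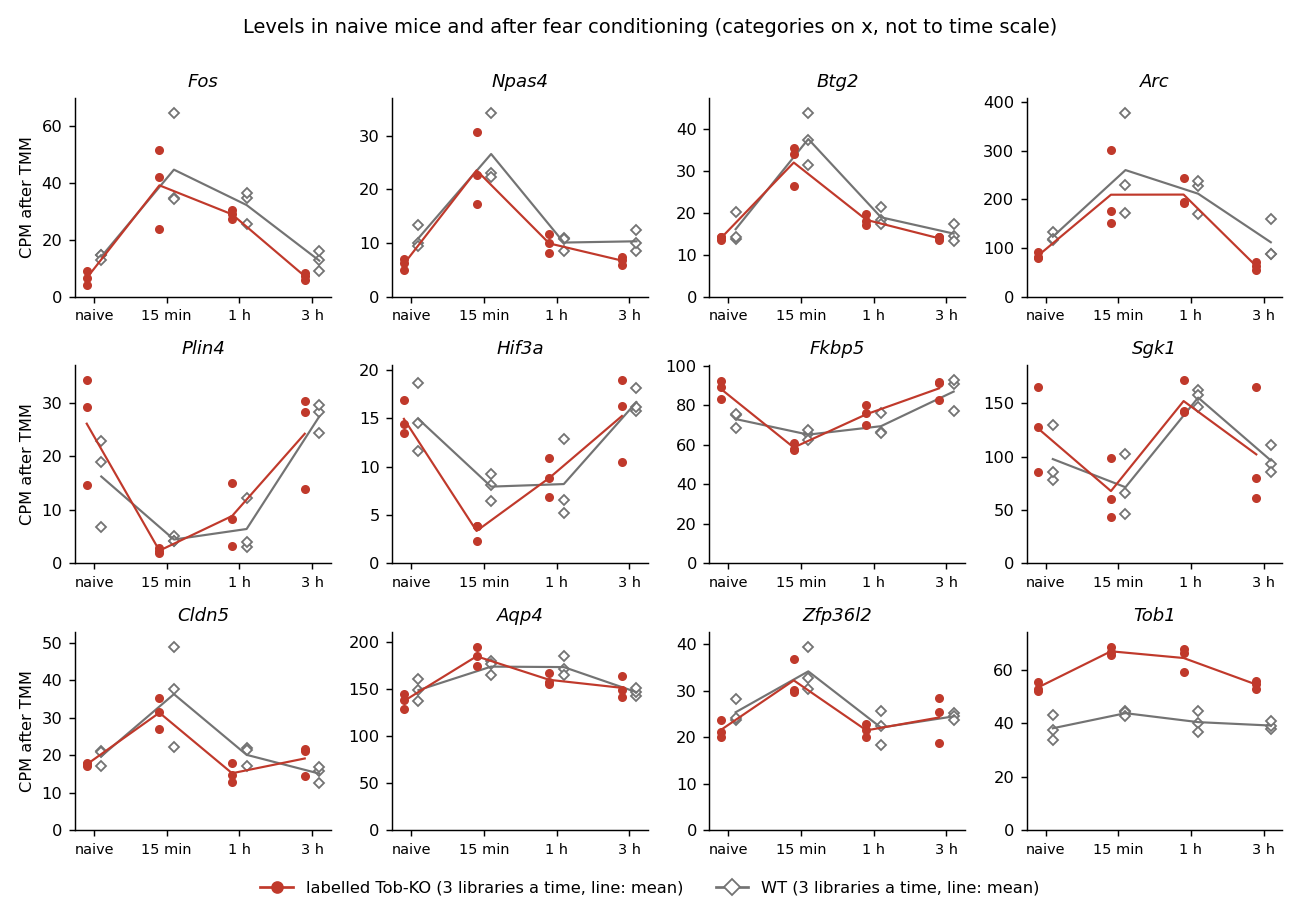
Level in CPM after TMM of 12 named genes in each library by time after conditioning (naive, 15 min, 1 h, 3 h), labelled Tob-KO (red circles) or WT (grey diamonds), with lines through group means. By group mean, Fos, Npas4 and Btg2 are highest at 15 min in both genotypes, and Plin4, Hif3a and Fkbp5 are lowest there, also in both. Tob1 is higher in the libraries labelled Tob-KO than in WT at every time.

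The same contrast in WT mice, made from other libraries, had 9 calls among 18349 genes (0.049%), all higher, namely Btg2, S1pr1, Cyr61, Egr2, Npas4, Ier2, Fos, Junb and Flt1. All but Flt1, a VEGF receptor of endothelium, were among the genes that rose in the libraries labelled Tob-KO, where Flt1 changed by 0.28 (SE 0.10, edgeR adjusted p = 0.143). Fos had 14.5, 14.8 and 12.9 CPM in naive WT mice, above the 4.08 to 8.89 CPM of naive Tob-KO mice, and 64.9, 34.8 and 34.6 CPM at 15 min. Its WT change of 1.67 (SE 0.28) differed from that of Tob-KO by 0.92 (SE 0.40, edgeR adjusted p of the difference 0.975). Btg2 changed by 1.22 (SE 0.14) in WT, with a difference of -0.02 (SE 0.20). Of the genes that rose in Tob-KO, 146 of 163 with a WT value had the same direction in WT (89.6%), and of those that fell, 284 of 301 had (94.4%), beside 65.3% of all genes tested. The WT groups also differed in the sum of the 17 choroid plexus genes. It was 4002, 1262 and 215 CPM in naive WT replicates 1 to 3 and 202, 226 and 239 CPM at 15 min. The part of this tissue in the WT changes and in their differences from Tob-KO was not tested.

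No gene of 19025 (0%) passed the test of the difference between the Tob-KO and the WT change. By edgeR's quasi-likelihood test 916 of the 19025 genes had an unadjusted p under 0.05. A share of 0.05 would be under this limit if no gene differed. The smallest adjusted p by edgeR was 0.407, and DESeq2 called none. For Fkbp5 the change was -0.59 in Tob-KO and -0.17 (SE 0.07) in WT, a difference of -0.42 (SE 0.10) with an unadjusted p of 0.000518 and an edgeR adjusted p of 0.975. For Hif3a the values were -2.15 and -0.91 (SE 0.27), a difference of -1.23 (SE 0.40, edgeR adjusted p = 0.975). For Plin4 they were -3.45 and -1.86 (SE 0.52), a difference of -1.58 (SE 0.74, edgeR adjusted p = 0.975). The larger number of calls in the libraries labelled Tob-KO was not accompanied by a tested difference for any gene named here. A830036E02Rik had a difference of 5.34 (SE 1.02), and it passed (edgeR adjusted p = 0.00273) only where the fit held the 12 libraries compared.

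**Figure D5:**
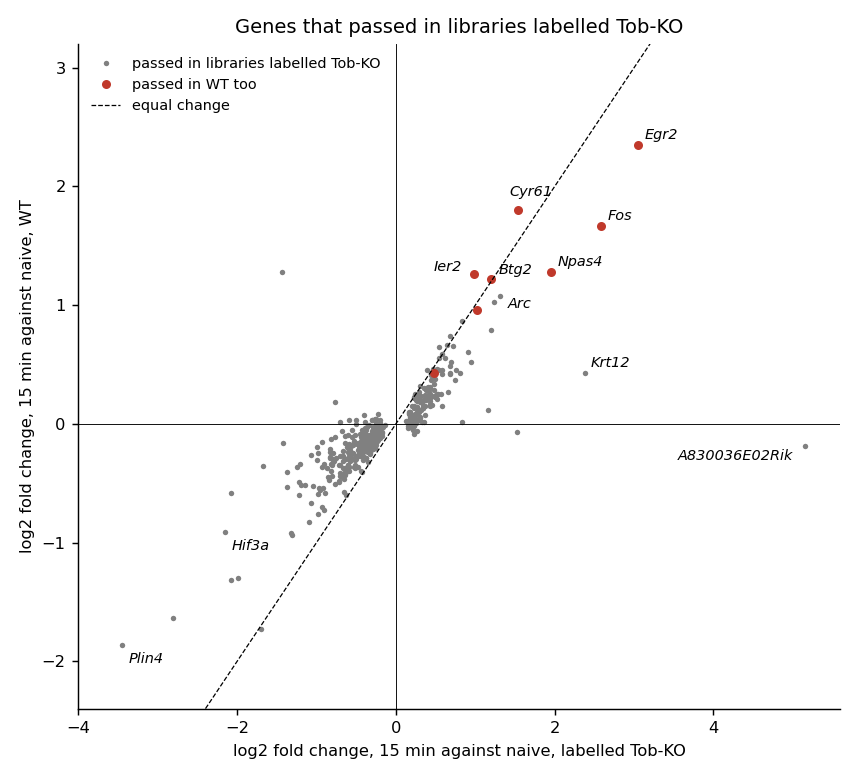
Log2 fold change of 15 min over naive in WT (y axis) against that in libraries labelled Tob-KO (x axis) for the 464 genes that passed in Tob-KO and have a WT value, with the 8 that passed in WT too in red and a dashed line of equal change. The genes were chosen by the x value, so points nearer to 0 on the y axis are no test of a smaller WT response, and A830036E02Rik lies alone at 5.15 on x and -0.19 on y.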

How the data were processed

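Hippocampal RNA of 24 mice was purified for poly(A) RNA and sequenced as directional libraries (8 PCR cycles, 150-bp paired ends). Per the labels and the study's methods, the authors mapped reads to GRCm38 with STAR 2.6.1d and counted them per gene with HTSeq 0.9.0, and they deposited raw counts without normalization. The annotation release, the strand setting and the handling of duplicate and multimapping reads were not given in the sources used here, and reads carry no molecular identifiers. Overlapping and antisense genes are therefore uncertain. Of the gene names 27 had been turned into dates.

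Groups, time points and replicate numbers were taken from the labels. A gene was tested if 2 or more of the 6 libraries reached 0.2 CPM. Two-sided tests were made with edgeR 4.0.16 (R 4.3.3), TMM and the quasi-likelihood test, with 1 factor of 8 groups over 24 libraries (16 residual degrees of freedom) and Benjamini-Hochberg adjustment over all genes tested. The study gives no test over time, and its exact test between genotypes was run as an alternative. The interaction and the contrast of 1 h with 15 min came from the same fit. Alternatives were DESeq2 1.42.0, library size alone, other filters, only the libraries compared, a replicate block and leaving out each library. Libraries of a group differed by 12.3 to 22.8 per degree of freedom in a chi-square of counts, so none was counted as a repeat. The script was tested on simulated counts in which 200 genes were changed. At an adjusted p of at most 0.05, false calls were 4.81% of the calls with the main fit and 14.4% with DESeq2. They were 7.65% with the quasi-likelihood fit and 20.4% with the exact test on the 6 libraries alone.

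Named genes were Tob1, listed genes that passed, the 10 largest rises and falls among genes apart with a mean of at least 1 CPM, and a fixed set of genes of the study. The members, the lists and this rule were chosen with earlier results of these data known. Genes named outside it are said to be so, or are lists and relatives given as background. Promoters are those of RefSeq, GRCm38.p6, and 36 of the 51 named genes had an entry. Gene coordinates are GENCODE's for GRCm38. P-values of the main fit rest on the spread between mice within a group, pooled over all 8 groups of 3 and not only those compared.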

Additional observations from a re-analysis of the deposited data

How the results depend on the processing

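With 3 libraries per group, the count of genes changed from naive to 15 min (466) moved by more than 1.5 times under several settings. DESeq2 called 986, edgeR's exact test on 6 libraries 181, the 6 libraries alone 5, and the fit without replicate 1 of both groups, added after the data were seen because these had the lowest sums of choroid plexus genes in their groups, 143. Leaving out 1 library gave 44 to 876. For changes of at least 2-fold (39), the 6 libraries alone gave 4, the added fit 21 and the leave-out fits 11 to 105. Library size in place of TMM gave 488 and 41, no filter 361 and 35, and a stricter filter 630 and 35. The split of calls moved from 165 higher and 301 lower to 152 and 336 with library size alone and 166 and 464 with the stricter filter. Same-numbered naive and 15 min libraries had correlations of their deviations of 0.351, 0.401 and 0.0562. Each library correlated best with its own number, and the highest value between different numbers was 0.00864. Other pairs of groups had lower values for the same number. They were -0.0275, -0.121 and -0.041 between Tob-KO at 15 min and 1 h, where different numbers reached 0.0893. Between naive and 15 min WT libraries they were -0.0454, 0.0882 and 0.109, where different numbers reached 0.163. The main fit did not use the numbers as pairs, and whether they mark a shared factor was not tested. The replicate block gave 252 calls and 26 of at least 2-fold over 24 libraries, and 73 and 16 over the 6. The number of genes whose response differed between genotypes was 0 in all settings except the libraries compared alone (1), and the number changed from 15 min to 1 h was 50 with DESeq2, 5 with the libraries compared alone and 0 to 3 when 1 library was left out. Of the genes not called, Egr3 turned to -0.0215 in the added fit. Leaving out 1 library turned Egr3 (-0.0677 to 0.138), Crhr2 (-0.269 to 0.246), Mc3r (-0.106 to 0.489) and Ttr (-1.86 to 0.41). The causes of these moves were not tested.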

Other observations

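Other groups of genes had members that changed at 15 min in the libraries labelled Tob-KO. These groups were put together after the values were seen, so their counts are a description with no test of the group, and the counts of fits given below are those, of 6, that each left out 1 library. Of 24 genes of cholesterol synthesis and its control, 8 rose, none fell and 23 had a positive change, with a median of 0.24 and, in WT, of 0.22. Among all genes tested 0.899% rose, 1.64% fell and 9443 of 18352 had a positive change. Hmgcs1, the enzyme that makes HMG-CoA, had 222, 221 and 228 CPM in naive and 287, 282 and 284 CPM in 15 min libraries (0.35, SE 0.07, edgeR adjusted p = 0.0203). Idi1, Sqle, Msmo1, Mvk, Dhcr7, Cyp51 and Stard4 rose by 0.24 to 0.48. Each of the 8 kept its call in 1 to 3 of the 6 fits that left out 1 library. Of 14 genes of neural progenitors and radial glia 6 rose, none fell and 8 did not pass. Sox2 had 38.8, 35.3 and 32.7 CPM in naive and 44.3, 51.9 and 61.8 CPM in 15 min libraries (0.57, SE 0.12, edgeR adjusted p = 0.0169; 0.141 without replicate 3 of the 15 min group and 0.0516 and 0.0603 without naive replicates 2 and 3), and Sox3, Sox21, Pax6, Nes and Nr2e1 rose as well. Their calls were kept in 4, 5, 3, 2 and 2 of the 6 fits, respectively.

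Of 7 long RNAs that stay in the nucleus 4 fell and all 7 had a negative change. Among all genes tested 1.64% fell and 0.899% rose. Malat1 had 1180, 1081 and 1179 CPM in naive replicates 1 to 3 and 663, 830 and 447 CPM at 15 min (-0.83, SE 0.19, edgeR adjusted p = 0.0282; 0.193 without replicate 3 of the 15 min group, the lowest, and kept only without replicate 2). Meg3, Miat and Mir124a-1hg fell by 0.85, 0.81 and 0.79 on the log2 scale and were lowest in the same library, and their calls were kept in 3, 1 and 4 of the 6 fits. Without that library their edgeR adjusted p was 0.157, 0.189 and 0.13. Of 11 SR splicing factors 4 fell, Srsf1, Srsf6, Srsf9 and Srsf11, and none rose, with calls kept in 3, 5, 2 and 1 of the 6 fits. Transcripts of the mitochondrial genome summed to 26030 to 28240 CPM in naive and 28160, 33580 and 33700 CPM in 15 min replicates 1 to 3, with no gene of 12 passing. Of 21 collagens and thrombospondins 6 fell, among them Thbs4, from 32.6, 33.5 and 26.6 CPM to 18.4, 16.4 and 18.3 CPM (-0.80, SE 0.16, edgeR adjusted p = 0.0169), and Col4a2 of basement membranes, by 0.52 on the log2 scale (edgeR adjusted p = 0.00827). Both were lost without replicate 3 of the 15 min group, with edgeR adjusted p of 0.0817 and 0.0716, and Thbs4 also without naive replicate 2 (0.0534). The other 4, Col7a1, Col11a1, Col20a1 and Thbs3, kept their call in 1 of the 6 fits each.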
